A study of Homo sapiens with 4 samples.

Results

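The E2F, RB family and FOXM1 regulators are 10 genes that switch the transcription of the cell cycle on and off: E2F1, E2F3, E2F4, E2F7, E2F8, RB1, RBL1, RBL2, FOXM1 and MYBL2. They were chosen by name from 50828 gene symbols measured in WI-38 cells, with earlier results of these data known. Together they hold 53 annotated transcripts, 24 of them protein-coding, out of 174558 in the series. A gene's level is the sum of its annotated transcripts in FPKM (fragments per kilobase of transcript, scaled by the mapped fragments), which is a level per length and can be set side by side between genes. All 10 genes were found in the tables of all 4 libraries.

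E2F proteins bind the promoters of genes for DNA replication and mitosis. E2F1 and E2F3 are known mainly as activators, E2F4 works mostly as a repressor with the pocket proteins, and E2F7 and E2F8 are atypical repressors that bind DNA without a DP partner. The pocket proteins RB1 (pRB), RBL1 (p107) and RBL2 (p130) hold E2Fs in check until cyclin-dependent kinases phosphorylate them. In resting cells p130 or p107 joins E2F4 and the MuvB core in the DREAM complex, which represses cell cycle genes, whereas in cycling cells MuvB passes to MYBL2 (B-MYB) and then FOXM1, which activate the genes of G2 and mitosis. Replicative senescence is a lasting exit from the cell cycle in which the CDK inhibitors p21 and p16 keep pocket proteins active.

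WI-38, an established fibroblast line from human fetal lung, divides a limited number of times. The groups were mitoplasts of senescent cells at population doubling level (PDL) 60, mitoplasts of young cells at PDL 21, whole senescent cells at PDL 60 and whole young cells at PDL 21. Mitoplasts are mitochondria stripped of the outer membrane, and here they were treated with RNase A to digest RNA outside the inner membrane. Each group held 1 library from this single line, so differences were not checked on replicates, and a difference between libraries cannot be told apart from a difference between conditions.

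Coding genes that reached 1 FPKM in annotated transcripts numbered 6626 in the senescent mitoplast library, 9790 in the young mitoplast library, 9536 in senescent whole cells and 9778 in young whole cells. Transcripts assembled by the authors' pipeline without a gene name held 97.3% of the summed FPKM in senescent mitoplasts, 92.7% in young mitoplasts, 76.2% in senescent whole cells and 53.7% in young whole cells, and these belong to no gene's level here. The depth of the libraries is unknown because the files hold no counts. An exact 0 can be a failed estimate, so such a value is given as listed at 0 and no fold is given against it. All 12 fibroblast markers, such as COL1A1 and VIM, were measured, with summed levels of 1057, 5919, 4647 and 9132 FPKM in senescent mitoplasts, young mitoplasts, senescent whole cells and young whole cells. VIM, PDGFRA and S100A4 were listed at 0 in senescent mitoplasts. The summed level of 9 epithelial markers was between 3.62 and 5.79 FPKM, with KRT5, KRT14 and SFTPB at 0 in all 4 libraries. Among them CDH1 was at 4.14 FPKM in young mitoplasts (1.44 FPKM in coding transcripts) and KRT8 at 3.70 FPKM in senescent mitoplasts. The 5 endothelial markers summed to between 8.23 and 32.5 FPKM, with CDH5 at 0 in all 4. TEK was at 9.22, 7.95, 24.8 and 28.8 FPKM in senescent mitoplasts, young mitoplasts, senescent whole cells and young whole cells. VWF was at 23.3 FPKM in senescent mitoplasts, with 0 FPKM in coding transcripts. The blood and immune markers summed to between 0.484 and 13.4 FPKM, with CD68 and CD3E at 0 in all 4. PTPRC was at 12.4 FPKM in young mitoplasts, with 0 FPKM in coding transcripts. The part of these levels in the values below was not tested.

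Several of these regulators are themselves known E2F targets, so the start regions of 4 members are shown for the E2F-binding letters they carry. Sequences come from RefSeq by gene symbol on build GRCh38.p14, as the 250 bases before the start annotated there. This start need not be that of the gene coordinates given below. Of the 10 members 8 had a window, with 10 windows in all. FOXM1 and E2F8 had none, and the RB1 window lies at the start of an internal transcript and not at the start of the gene, so it is not described. By the gene coordinates below, the last 95 bases of the MYBL2 window, 19 of the E2F1 window and 11 of the E2F7 window lay inside the gene. Both RBL2 windows and the E2F3 window with 1 core lay wholly inside their genes. Capitals mark 2 overlapping motifs searched on both strands, the 8-base E2F forms TTTCCCGC, TTTCGCGC, TTTGCCGC and TTTGGCGC, and the 6-base cores TTCCCG or TTCGCG or TTGCCG or TTGGCG, which lie within them. Of 35116 windows of the same length over all genes, 2.79% held an 8-base form and 26.8% a core. E2F1 (chr20:33686386-33686635, minus strand) and RBL1 (chr20:37095998-37096247, minus strand) each held a pair of 8-base forms close to the start, whereas E2F7 (chr12:77065570-77065819, minus strand) held cores only and MYBL2 held 1 core, shown in a 30-base stretch (chr20:43667061-43667090, plus strand).
E2F1: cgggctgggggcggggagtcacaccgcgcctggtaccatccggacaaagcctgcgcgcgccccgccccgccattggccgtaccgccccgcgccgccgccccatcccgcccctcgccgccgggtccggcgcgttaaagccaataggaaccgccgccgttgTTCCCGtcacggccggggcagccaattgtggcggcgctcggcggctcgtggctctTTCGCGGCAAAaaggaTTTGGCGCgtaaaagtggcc
RBL1: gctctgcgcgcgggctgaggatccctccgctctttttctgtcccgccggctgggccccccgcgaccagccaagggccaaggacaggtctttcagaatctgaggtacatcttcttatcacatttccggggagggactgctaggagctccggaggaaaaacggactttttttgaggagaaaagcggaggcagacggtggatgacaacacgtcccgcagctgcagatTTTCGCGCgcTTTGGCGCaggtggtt
E2F7: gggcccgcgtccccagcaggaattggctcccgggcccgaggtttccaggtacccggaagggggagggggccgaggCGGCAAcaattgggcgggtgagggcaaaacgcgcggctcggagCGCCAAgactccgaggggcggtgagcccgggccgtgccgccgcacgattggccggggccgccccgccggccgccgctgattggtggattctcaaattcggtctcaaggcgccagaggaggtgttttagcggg
MYBL2: gcgccgacgcgcTTGGCGggagatagaaaa
In E2F1 the 8-base forms spanned bases −33 to −26 and −20 to −13, counted back from −1 at the base before the start. In RBL1 they spanned bases −26 to −19 and −16 to −9. By the gene coordinates below, the MYBL2 core lay inside its gene and the E2F1 form at −20 to −13 reached into its gene. E2F3 held a single 8-base form and 3 cores in the first of its windows and 1 core in the other, and the windows of E2F4 and RBL2 held neither motif. The CCAAT box, found in 32.0% of all windows, occurred 4 times each in the E2F7 window and the first E2F3 window. It occurred 3 times in the E2F1 window and 1 time in 1 RBL2 window. TTTGAA, the cell cycle homology region that MuvB is known to bind, was in 13.3% of all windows and, among the members, in E2F3 alone. A match describes letters only and says nothing of binding in these cells.

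In senescent whole cells the levels ran from E2F3 at 19.0 FPKM and E2F7 at 10.4 FPKM, through E2F4, RB1, RBL2, E2F1 and RBL1, down to MYBL2 at 0.0789 FPKM, with FOXM1 and E2F8 listed at 0. In young whole cells E2F3 was also highest, at 17.8 FPKM, and FOXM1 came next at 13.8 FPKM. E2F4, RB1, MYBL2, E2F1, RBL2 and E2F7 followed, above E2F8 at 0.934 FPKM and RBL1 at 0.886 FPKM. Members above 0 numbered 4 of 10 in senescent mitoplasts, 9 in young mitoplasts, 8 in senescent whole cells and 10 in young whole cells. With 1 library a group there is no spread by which to say which neighbours in these orders differ.

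**Figure D1:**
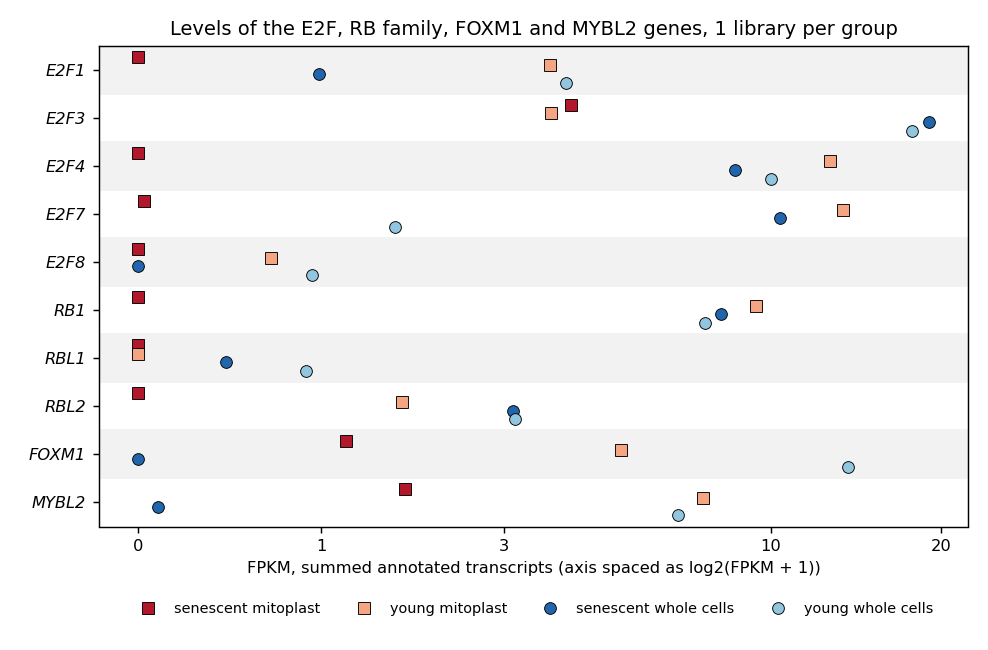
Level of each regulator (FPKM, summed annotated transcripts, axis spaced as log2 of FPKM plus 1) in the 4 libraries, 1 point a library, squares for mitoplasts and circles for whole cells. FOXM1, MYBL2 and E2F1 lie lower in senescent than in young whole cells, E2F7 lies higher, and 6 of the 10 genes sit at 0 in the senescent mitoplast library.

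Among the activators, E2F1 was low in senescent whole cells and E2F3 was not. E2F1, which drives entry into S phase (GRCh38 chr20:33675683-33686404, minus strand), was listed at 0 in senescent mitoplasts and stood at 3.77 FPKM in young mitoplasts, 0.982 FPKM in senescent whole cells and 4.07 FPKM in young whole cells. Both young libraries were therefore close to each other and above both senescent ones. The whole-cell level was 4.14 times lower in senescent cells, a log2 ratio of −1.35 on the log2(FPKM + 1) scale used for all ratios here, which understates changes of low genes. E2F1 has 1 annotated transcript in the tables, of 2503 nt, so no choice of isoform enters this value.

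E2F3, which shares the activator role with E2F1 (GRCh38 chr6:20401906-20493715, plus strand), was at 4.16 FPKM in senescent mitoplasts, 3.78 FPKM in young mitoplasts, 19.0 FPKM in senescent whole cells and 17.8 FPKM in young whole cells. The 2 whole-cell libraries differed by a log2 ratio of 0.09, and by at most 0.35 under the scalings tried. In whole cells nearly all of the level came from the 4425-nt transcript with a coding sequence of 334 codons, known as E2F3b, at 17.3 FPKM in senescent and 17.8 FPKM in young cells. The 4749-nt transcript with 465 codons, known as E2F3a, stood at 1.75 FPKM in senescent whole cells and was listed at 0 in young ones. In the senescent mitoplast library the short form carried all 4.16 FPKM, whereas in the young mitoplast library the long form led, with 3.17 FPKM against 0.617 FPKM of the short form.

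E2F4, the E2F of the DREAM complex (GRCh38 chr16:67192169-67198918, plus strand), was listed at 0 in senescent mitoplasts, against 12.8 FPKM in young mitoplasts. It stood at 8.62 FPKM in senescent whole cells and 10.04 FPKM in young whole cells, so the whole-cell libraries were close to each other. Much of this level was not coding. The 849-nt transcript annotated for nonsense-mediated decay held 64.8% of the gene's level in young mitoplasts, 51.9% in senescent whole cells and 66.7% in young whole cells. The coding transcript of 2096 nt was at 4.14 FPKM in senescent and 3.34 FPKM in young whole cells. The whole-cell log2 ratio was −0.20 for all transcripts and 0.24 for the coding one, so its sign depends on that choice, as it does on scaling to equal sums, which gave 0.05. A further assembled transcript without a name in the E2F4 locus was at 1.89 FPKM in senescent mitoplasts, 3.48 FPKM in senescent whole cells and 3.54 FPKM in young whole cells.

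Of the atypical repressors, E2F7 was higher in senescent whole cells and E2F8 was too low to compare. E2F7 (GRCh38 chr12:77021247-77065580, minus strand), known to repress E2F1 and other E2F targets, was at 0.0218 FPKM in senescent mitoplasts, 13.5 FPKM in young mitoplasts, 10.4 FPKM in senescent whole cells and 1.65 FPKM in young whole cells. The level in senescent whole cells was 6.29 times that in young whole cells, a log2 ratio of 2.10, and no other regulator was called higher there. With an unnamed assembled transcript of its locus added, at 2.83 FPKM in senescent and 2.02 FPKM in young whole cells, the level was 3.60 times that in young cells, a log2 ratio of 1.61. Both full-length transcripts were higher in senescent whole cells. The 5740-nt form of 911 codons was at 5.56 FPKM in senescent and 0.569 FPKM in young cells, and the 5297-nt form of 728 codons at 4.83 FPKM in senescent and 1.08 FPKM in young cells. The high level in young mitoplasts had another source, since coding transcripts of 724 nt and 570 nt held 5.75 and 6.59 FPKM there and were listed at 0 in the other 3 libraries. Its full-length 5740-nt form was at 1.14 FPKM in young mitoplasts.

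E2F8, the partner of E2F7 in repression (GRCh38 chr11:19224063-19241620, minus strand), was listed at 0 in senescent mitoplasts and senescent whole cells, and stood at 0.654 FPKM in young mitoplasts and 0.934 FPKM in young whole cells. It appeared in the young libraries only, but below 1 FPKM, so it entered no comparison. A gene annotated antisense to E2F8 overlaps it, and reads of the pair are treated as impossible to tell apart, since the sources used here do not give a strand setting.

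The pocket proteins were close between the whole-cell libraries where they were measurable. RB1, the retinoblastoma protein gene (GRCh38 chr13:48303726-48599436, plus strand), was listed at 0 in senescent mitoplasts and stood at 9.42 FPKM in young mitoplasts, 8.12 FPKM in senescent whole cells and 7.59 FPKM in young whole cells. Its 3 values above 0 lay within a narrow range, and all came from the 4793-nt coding transcript of 928 codons. RBL2, whose protein p130 is the main pocket protein of resting cells (GRCh38 chr16:53433977-53491649, plus strand), was listed at 0 in senescent mitoplasts and stood at 1.72 FPKM in young mitoplasts, 3.15 FPKM in senescent whole cells and 3.18 FPKM in young whole cells. The whole-cell log2 ratios were 0.09 for RB1 and −0.01 for RBL2, and that of RBL2 turned to between 0.12 and 0.20 under other scalings. RBL1, whose protein p107 is typical of cycling cells (GRCh38 chr20:36996349-37095995, minus strand), was listed at 0 in both mitoplast libraries and stood at 0.394 FPKM in senescent whole cells and 0.886 FPKM in young whole cells, too low for a comparison.

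Transcripts outside these sums lay in the same loci. An assembled transcript in the RB1 locus had 10.1 FPKM in senescent whole cells and 6.60 FPKM in young whole cells, and one in the RBL1 locus at 2.26 FPKM in young mitoplasts, 0.402 FPKM in senescent whole cells and 2.05 FPKM in young whole cells. An annotated RBL2 transcript whose identifier had no symbol was at 0.0401 FPKM in senescent mitoplasts, 2.50 FPKM in young mitoplasts, 5.18 FPKM in senescent whole cells and 4.28 FPKM in young whole cells. With these added, the whole-cell libraries of RB1 and RBL2 still differed by a log2 ratio below 1, whereas RBL1, at 0.796 FPKM in senescent and 2.93 FPKM in young whole cells, became comparable and was lower, with a ratio of −1.13. It was also lower in senescent than in young mitoplasts once its locus was added, listed at 0 against 2.26 FPKM. The RB1 locus also holds LPAR6 and RCBTB2, and that of RBL2 overlaps AKTIP, all on the opposite strand.

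FOXM1 and MYBL2, the activators of the G2 and mitotic genes, showed the widest whole-cell gaps. FOXM1 (GRCh38 chr12:2857681-2877155, minus strand) was at 1.19 FPKM in senescent mitoplasts and 5.23 FPKM in young mitoplasts. It was listed at 0 in senescent whole cells, against 13.8 FPKM in young whole cells. Every annotated FOXM1 transcript was at 0 in senescent whole cells, and in young whole cells the level was split between the 3475-nt form of 801 codons at 7.11 FPKM and the 3370-nt form of 748 codons at 6.65 FPKM. The senescent mitoplast value came from a 2518-nt retained-intron transcript alone, with the coding transcripts listed at 0. ITFG2, which overlaps FOXM1 on the other strand, was at 8.97 FPKM in senescent mitoplasts and 18.4 FPKM in senescent whole cells and listed at 0 in both young libraries, the reverse of FOXM1 in whole cells. Whether overlapping reads were assigned to one gene or the other was not tested.

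MYBL2 (GRCh38 chr20:43667019-43716496, plus strand) was at 1.75 FPKM in senescent mitoplasts, 7.50 FPKM in young mitoplasts, 0.0789 FPKM in senescent whole cells and 6.75 FPKM in young whole cells. Both young libraries lay above both senescent ones. The whole-cell log2 ratio was −2.84. The 2639-nt transcript of 700 codons was listed at 0 in both senescent libraries, where the 2704-nt form of 676 codons carried all of the value, and was at 5.49 FPKM in young mitoplasts and 4.49 FPKM in young whole cells. MYBL2 overlaps no other annotated gene.

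**Figure D2:**
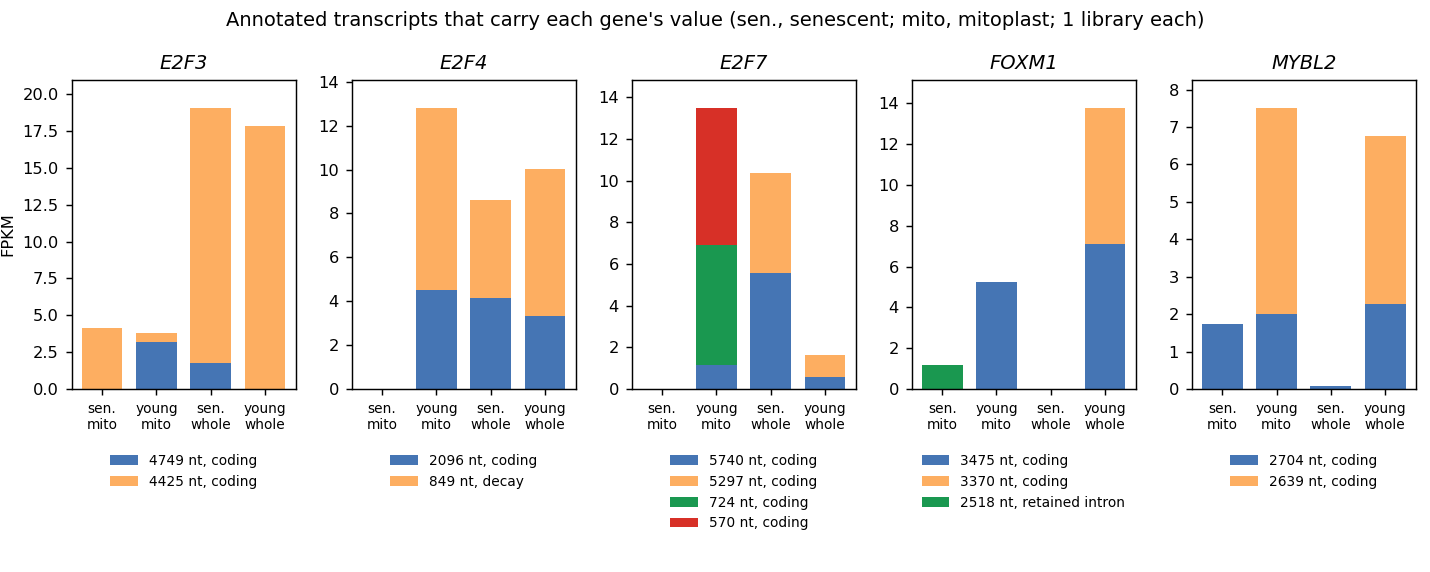
Level (FPKM) of the annotated transcripts that carry E2F3, E2F4, E2F7, FOXM1 and MYBL2 in each library, stacked by transcript length and type, on a scale of its own for each gene. The E2F7 bar of the young mitoplast library is mostly the 724-nt and 570-nt transcripts, and the FOXM1 bar of the senescent mitoplast library is the retained-intron transcript of 1.19 FPKM.

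The comparison of senescent with young whole cells asks how the regulators stood in cells labelled senescent. A gene was compared at 1 FPKM or more in at least 1 of the 2 libraries and called past a log2 ratio of 1. Of 8 regulators compared, 1 was higher (E2F7) and 3 were lower (FOXM1, MYBL2, E2F1), against 17.3% of 14804 genes called higher and 21.2% called lower. The members' median was −0.10, beside −0.13 over all genes, so the middle regulator lay close to the middle gene. E2F7 stood above 94.1% of the compared genes, and E2F1, MYBL2 and FOXM1 above 13.9%, 3.71% and 2.00% of them. FOXM1 was lower in the sense of a level listed at 0 in senescent and of 13.8 FPKM in young cells, and 5.65% of the 2744 coding genes at 5 to 15 FPKM in young whole cells were likewise listed at 0 in senescent ones. In bulk RNA, fewer cells that express a gene and less RNA per cell cannot be told apart. Of all calls 44.9% were higher, or 55.8% when libraries were scaled to an equal sum over genes; the 4 calls among the regulators kept their side under each scaling tried.

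Most genes known as targets of these regulators were lower in senescent whole cells. The target lists, like the members, were chosen with earlier results of these data known. Of 21 compared G1/S genes known as E2F targets, 17 were lower and 1 higher, with a median log2 ratio of −2.17. Thymidine kinase TK1 was at 0.247 FPKM in senescent and 28.5 FPKM in young whole cells. CDC45 and GINS1, parts of the replicative helicase, were at 1.05 and 2.49 FPKM in senescent cells and at 14.8 and 21.4 FPKM in young cells. MCM10, a replication initiation factor, was at 0.447 FPKM in senescent and 9.09 FPKM in young cells. With coding transcripts alone, 16 of 19 were lower and 0 higher, where 2142 of 9557 genes were lower and 1478 higher. In coding transcripts TK1 was listed at 0 in senescent and at 11.7 FPKM in young cells. CDC45 was at 0.0405 FPKM in senescent and 2.75 FPKM in young cells in coding transcripts.

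Of 22 compared G2/M genes known as targets of FOXM1 and the MYBL2-MuvB complex, 21 were lower and 0 higher, and their median was −3.19. The spindle checkpoint kinase BUB1B was at 0.634 FPKM in senescent and 45.1 FPKM in young whole cells, and the mitotic kinase AURKB at 0.106 FPKM in senescent and 17.0 FPKM in young cells. The ubiquitin-conjugating enzyme UBE2C was at 0.591 FPKM in senescent and 19.4 FPKM in young cells, and the phosphatase CDKN3 at 1.03 FPKM in senescent and 28.2 FPKM in young cells. The member that was not lower was SKP2, named after its values were seen, at 57.8 FPKM in senescent and 60.3 FPKM in young cells. With coding transcripts alone, 19 of 21 were lower and 0 higher. Much of some levels was not coding: in coding transcripts BUB1B was at 0.0729 FPKM in senescent and 3.93 FPKM in young cells, and GINS1 at 0.242 FPKM in senescent and 1.04 FPKM in young cells. AURKB was at 0.106 FPKM in senescent and 7.48 FPKM in young cells in coding transcripts, and SKP2 at 4.04 FPKM in senescent and 7.97 FPKM in young cells.

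The MuvB core, which E2F4 and the pocket proteins bind in DREAM, had 5 members compared, 3 lower and 0 higher, with a median of −1.07. LIN52 was at 37.3 FPKM in senescent and 79.2 FPKM in young whole cells, whereas LIN37 and RBBP4, named after their values were seen, were listed at 0 in senescent cells and at 14.1 and 74.9 FPKM in young cells. In coding transcripts RBBP4 was at 13.6 FPKM in young cells. Of 8 RB corepressors compared, 4 were lower and 1 higher. With coding transcripts alone, 4 of 7 were lower and 0 higher. The higher one, SUV39H1, named after its values were seen, was at 1.25 FPKM in senescent and listed at 0 in young cells. It was at 0 in coding transcripts in both. HDAC1 and EZH2, also named after their values were seen, were listed at 0 in senescent cells and at 38.7 and 3.66 FPKM in young cells. RBBP8 was at 7.97 FPKM in senescent and 32.0 FPKM in young cells, and RBBP7 at 21.2 FPKM in senescent and 50.8 FPKM in young cells. The histone deacetylase HDAC2 and the chromatin remodeller SMARCA4 had ratios of −0.77 and −0.78. Of the other E2F, DP and MYB family genes 3 were compared and none was called; TFDP1, the DNA-binding partner of the E2Fs, was at 28.4 FPKM in senescent and 47.2 FPKM in young cells, and MYBL1, a relative of MYBL2, at 11.5 FPKM in senescent and 14.6 FPKM in young cells. With coding transcripts alone, 1 of 2 compared was lower, TFDP1, at 21.2 FPKM in senescent and 47.2 FPKM in young cells.

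Upstream of the pocket proteins the cyclins and kinases were divided. Of 10 compared, 3 were higher and 5 lower, and their median was −0.77. The 3 higher ones were the D cyclins that start phosphorylation of RB: CCND2 at 10.7 FPKM in senescent and 1.55 FPKM in young whole cells, and, named after their values were seen, CCND1 at 541 FPKM in senescent and 202 FPKM in young cells and CCND3 at 39.4 FPKM in senescent and 14.6 FPKM in young cells. The cyclins and kinases of S phase and mitosis were lower, with CDK1 at 1.56 FPKM in senescent and 26.2 FPKM in young cells, CCNB1 at 2.99 FPKM in senescent and 21.1 FPKM in young cells and CCNA2 at 1.11 FPKM in senescent and 6.62 FPKM in young cells. The other two, named after their values were seen, were CDK2 at 1.75 FPKM in senescent and 6.31 FPKM in young cells, and CDK4, the partner of the D cyclins, listed at 0 in senescent and at 16.5 FPKM in young cells. Of 6 compared CDK inhibitors, 1 was higher and 1 lower, with a median of −0.17. CDKN1A, which encodes p21, was at 152 FPKM in senescent and 93.7 FPKM in young whole cells, a ratio of 0.69 that missed the call. The higher one was CDKN2A, the gene of p16 and ARF, named after its values were seen, at 15.6 FPKM in senescent whole cells and listed at 0 in young ones. In mitoplasts CDKN2A was at 33.5 FPKM in senescent and 65.5 FPKM in young cells, a ratio of −0.95. The whole-cell call was therefore not repeated in mitoplasts, and it rests on a value listed at 0. In whole cells CDKN1B and CDKN2B had ratios of −0.28 and −0.13. In coding transcripts CDK1 was listed at 0 in senescent and at 8.15 FPKM in young cells, and CDKN1B was at 1.84 FPKM in senescent and 1.89 FPKM in young cells.

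**Figure D3:**
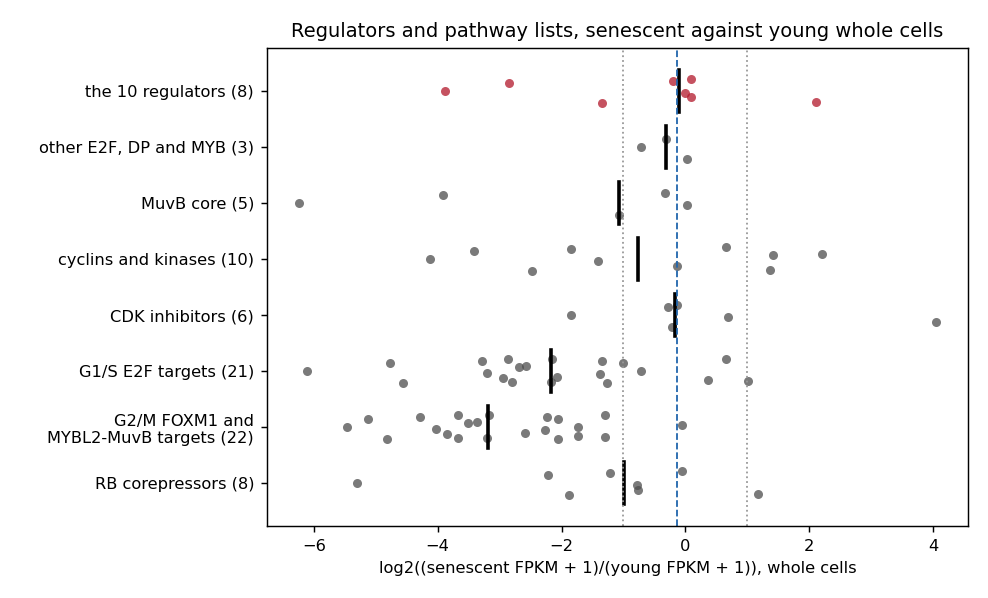
Log2 ratio of senescent to young whole cells, with 1 added to each FPKM, for the compared members of the regulators and of 7 pathway lists (number compared in brackets); each point is a gene, the black bar is the list's median, the dashed line the median of all genes and dotted lines the call at 1 and −1. The 2 target lists have medians of −2.17 and −3.19, and the regulators one of −0.10.

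In mitoplasts, 7 of the 8 compared regulators were lower in the senescent library and 0 were higher, where 57.7% of 13832 genes were lower and 21.9% higher. The count is read against a background in which most genes were lower; the median was −1.94 for the regulators and −1.27 over all genes. E2F3 was the exception, with a ratio of 0.11, although different transcripts led its level in senescent and young mitoplasts. Of the 7, E2F1, E2F4, RB1 and RBL2 were listed at 0 in senescent mitoplasts, as were 35.8% of the 2823 coding genes at 5 to 15 FPKM and 50.8% of those at 1 to 5 FPKM in young mitoplasts. FOXM1 had a ratio of −1.51 and MYBL2 one of −1.63, and both lost the call when centred on the median nuclear gene, at −0.23 and −0.36. Of all calls 27.5% were higher, or 47.4% with libraries scaled to an equal sum and 56.8% when centred on the median nuclear gene; with that centring 3 regulators were lower and 1, E2F3, was higher, and with equal sums 4 were lower and E2F3 again higher.

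**Figure D4:**
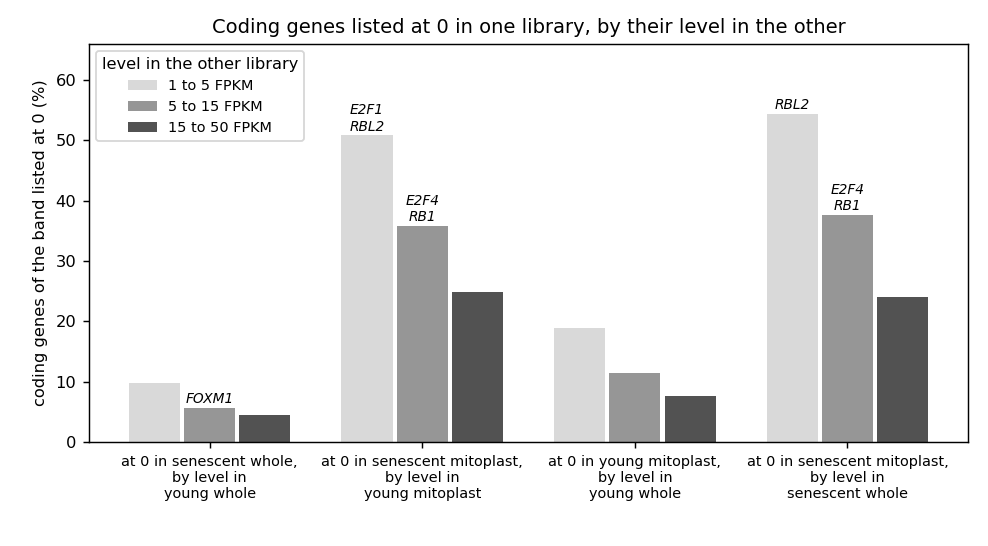
Share of coding genes (%) listed at 0 in one library, by their level in the other library of each comparison (bars for 1 to 5, 5 to 15 and 15 to 50 FPKM), with the regulators listed at 0 written above their bar. In the senescent mitoplast library, between 24.0% and 54.3% of the genes of each band were at 0, and E2F1, E2F4, RB1 and RBL2 lie in bands of that kind.

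Mitoplasts were set against whole cells of the same age to ask which regulator RNAs accompanied the RNase-treated fraction. In senescent cells 2 of 7 compared regulators were higher in mitoplasts (FOXM1 and MYBL2) and 5 were lower (E2F3, E2F4, E2F7, RB1 and RBL2), with 18.7% of 14779 genes higher and 64.7% lower. The median was −2.05 for the regulators and −1.48 over all genes. MYBL2 had a ratio of 1.35, from 1.75 FPKM in senescent mitoplasts and 0.0789 FPKM in senescent whole cells. FOXM1 counted as higher through its retained-intron transcript, and with coding transcripts alone it was at 0 in both libraries. E2F3, as a sum of its transcripts, kept nearly the same ratio at both ages, −1.96 in senescent and −1.98 in young cells. Its single transcripts did not. The 4425-nt form was at 4.16 FPKM in senescent mitoplasts and 17.3 FPKM in senescent whole cells, but at 0.617 and 17.8 FPKM in young ones. The 4749-nt form was at 3.17 FPKM in young mitoplasts and listed at 0 in young whole cells. When centred on the median nuclear gene, E2F3 and RBL2 lost the call in senescent cells, at −0.48 and −0.57. Of all calls 22.4% were higher, or 34.4% under median-of-ratios scaling and 51.3% when centred.

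In young cells 1 of 8 regulators was higher in mitoplasts (E2F7) and 2 were lower (E2F3 and FOXM1), with 23.1% of 15660 genes higher and 40.1% lower. The median was 0.02 for the regulators and −0.46 over all genes. E2F1, RB1, MYBL2 and E2F4 had ratios of −0.09, 0.28, 0.13 and 0.32, and RBL2 one of −0.62; the signs of the first 4 turned under some scalings. The E2F7 call rested on its short transcripts: with transcripts of 1000 nt or more, an alternative chosen after seeing the data, its ratio was −0.31 in place of 2.45. The FOXM1 ratio of −1.24 became 0.40 when 13.2 FPKM of assembled transcripts in its locus, present in young mitoplasts and not in young whole cells, were added. Of all calls 36.5% were higher, or 47.5%, 23.6% and 51.1% under median-of-ratios scaling, equal sums and centring.

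The mitoplast to whole-cell ratio differed between ages by 1 or more for 6 of 8 regulators, a count read against a background in which most genes differed as much. Senescent minus young, it was lower for E2F7 (−5.93), E2F4 (−3.59), RB1 (−3.47) and RBL2 (−1.43) and higher for FOXM1 (2.38) and MYBL2 (1.21), where 45.3% of 18238 genes were lower and 22.3% higher. With transcripts of 1000 nt or more, chosen after seeing the data, the E2F7 difference was −3.17. E2F1 and E2F3 differed by −0.90 and 0.02, or by 0.12 and 1.04 when centred. The call was lost for RBL2 when centred, at −0.41, and for FOXM1 with unnamed transcripts of its locus added, at 0.74. With coding transcripts alone the FOXM1 difference was 1.24. Among all calls of this difference 33.0% were higher, or 45.9% with equal sums and 60.0% when centred. The 4 genes lower here were at or near 0 in senescent mitoplasts, as was E2F1, and both higher genes were at or near 0 in senescent whole cells.

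**Figure D5:**
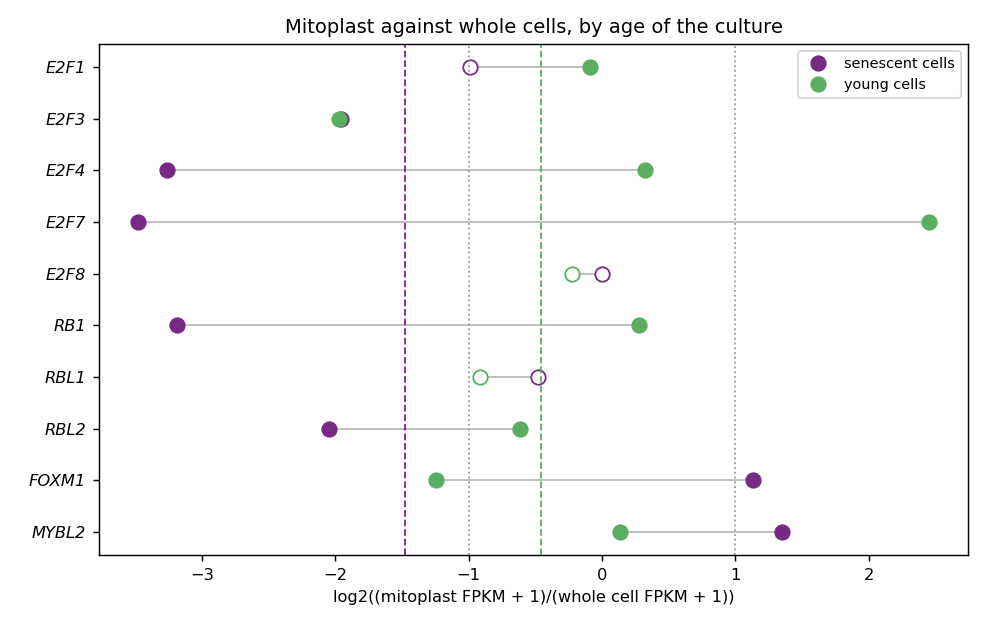
Log2 ratio of mitoplast to whole-cell level, with 1 added to each FPKM, for each regulator in senescent and young cells; open circles mark genes under 1 FPKM in both libraries, dashed lines the median of all genes at each age and dotted lines the call at 1 and −1. E2F3 has nearly the same place at both ages, although different transcripts led its level in senescent and young mitoplasts. E2F7 moves between −3.48 in senescent and 2.45 in young cells. With transcripts of 1000 nt or more, chosen after seeing the data, the E2F7 value of young cells was −0.31.

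The genes whose pattern over the 4 libraries lay nearest to FOXM1 and RB1 were sought among the 9404 coding genes that reached 5 FPKM in some library, by the Euclidean distance between log2(FPKM + 1) values centred on each gene's mean. For FOXM1 they were DHX33 at a distance of 0.47, CEBPD at 0.49 and CENPF at 0.61, against a median distance of 3.55. CENPF, a kinetochore protein gene that is also on the G2/M list, was at 1.91 FPKM in senescent mitoplasts, 4.92 FPKM in young mitoplasts, 0.394 FPKM in senescent whole cells and 11.6 FPKM in young whole cells. DHX33 and CEBPD, which were nearer, are not on that list. In the same order of libraries DHX33 was at 1.05, 5.87, 0 and 9.45 FPKM, and CEBPD at 3.83, 18.7, 2.46 and 40.8 FPKM. For RB1 they were SLC50A1 and PITPNB, both at 0.07, and SLFN5 at 0.11, against a median distance of 2.66. Each of these rests on 4 values.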

How the data were processed

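RNA of 4 WI-38 libraries was analysed, 1 a group. The deposited values are FPKM per transcript, per the file headers. TopHat2 2.0.14 and Cufflinks 2.2.1, with Cuffdiff and build hg19, are named without role or order, per the submitters' processing notes; annotation release, strand and normalization settings were not given in the sources used here. Ensembl transcript identifiers were matched to symbols through GENCODE 29 and a gene table (94.1% matched), 157 identifiers with conflicting matches were left out, and annotated transcripts were summed per gene. Ratios are log2((A + 1)/(B + 1)), computed for genes at 1 FPKM or more in either library and called at 1. No test, SD or p-value is possible with 1 library a group. The members and lists were chosen with earlier results of these data known. Named list genes are up to 4 per list with the largest whole-cell ratio among those at 5 FPKM or more in a library and above 0 in both; others are marked where named. UHRF1 and PECAM1 are not analysed here. The calculation was tested on simulated data. Python 3.11.15, pandas 2.3.3, numpy 2.4.6 and matplotlib 3.10.9 were used.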

Additional observations from a re-analysis of the deposited data

Results flagged for a closer look

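E2F7 went opposite ways in the 2 fractions. Its log2 ratio of senescent to young was −3.83 in mitoplasts and 2.10 in whole cells, and its ratio of mitoplast to whole cells was −3.48 in senescent and 2.45 in young cells. The short E2F7 transcripts seen in young mitoplasts alone enter the −3.83 and the 2.45. With transcripts of 1000 nt or more, chosen after seeing the data, these were −1.07 and −0.31. FOXM1 had a ratio of mitoplast to whole cells of 1.13 in senescent cells, where whole cells were listed at 0 and the pseudocount sets the size, and of −1.24 in young cells. These opposite directions were not tested, because each group holds 1 library.

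Transcripts without a gene name were left out of the gene levels. In 2 loci their signal appeared in a mitoplast library while the library it was set against was at 0. In the E2F4 locus one was at 1.89 FPKM in senescent mitoplasts, with 0 in young mitoplasts. In the FOXM1 locus such transcripts summed to 13.2 FPKM in young mitoplasts, with 0 in young whole cells.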

How the results depend on the processing

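No paired analysis was possible because each group holds 1 library, and leaving out a replicate was not possible for the same reason. Of the regulators' single ratios under the alternatives, 369 kept their call or stayed without one (uncalled ratios near 0 could change sign), 25 lost the call, 5 gained it and 2 turned: the mitoplast to whole-cell ratio of young cells was −0.31 for E2F7 with transcripts of 1000 nt or more (chosen after seeing the data) and 0.40 for FOXM1 with unnamed locus transcripts added. In whole cells, senescent against young, 1 ratio lost its call, E2F1 at a call of 2. The median nuclear gene lay at −0.13 in senescent against young whole cells, −1.27 in mitoplasts, −0.46 for mitoplast against whole young cells and −1.48 for senescent ones. The comparisons below are, in this order, senescent against young whole cells, senescent against young mitoplasts, mitoplast against whole young cells, mitoplast against whole senescent cells and the difference of the last pair.

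Genes called higher and lower numbered 2556 and 3143, 3029 and 7983, 3614 and 6281, 2758 and 9558, and 4072 and 8263. At a call of 2 they numbered 944 and 1061, 1811 and 4404, 1493 and 3155, 1744 and 5537, and 2271 and 4520; 4 regulators were then lower in senescent mitoplasts, 0 lower in young mitoplasts against whole cells, 0 higher in senescent mitoplasts against whole cells, and 1 higher in the difference. With genes above 0 in both libraries, 1603 were higher in senescent whole cells, 1603 higher and 2887 lower in senescent mitoplasts, 1835 and 3381 in young mitoplasts against whole cells, 1441 and 3596 in senescent ones, and 1470 and 2423 in the difference; regulators numbered 3 lower in senescent mitoplasts, 1 higher and 2 lower in senescent mitoplasts against whole cells, and 1 higher and 1 lower in the difference.

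Centred on the median nuclear gene, the calls numbered 4737 higher and 3606 lower in senescent against young mitoplasts, 4414 and 4185 in senescent mitoplasts against whole cells, and 6694 and 4467 in the difference; regulators numbered 1 higher and 3 lower in senescent against young mitoplasts, 1 lower in young mitoplasts against whole cells and 3 lower in senescent ones. Equal sums gave 4822 genes higher, with 1 regulator higher and 4 lower, in senescent against young mitoplasts, and 2317 genes higher in young mitoplasts against whole cells. Median-of-ratios scaling left 1 regulator lower in young mitoplasts against whole cells, as did adding unnamed locus transcripts, which left 1 higher in the difference.

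Coding transcripts alone gave 1478, 1411, 1857, 1242 and 1943 genes higher in the 5 comparisons, 3613 lower in young mitoplasts against whole cells, and 1 regulator higher in senescent ones. Transcripts of 1000 nt or more gave 1431, 1107, 1419, 954 and 1589 higher, and 1790, 5314, 3414 and 5304 lower in all but senescent mitoplasts against whole cells, with 0 regulators higher in young mitoplasts against whole cells. A filter of 5 FPKM gave 1564 higher in senescent whole cells, 4449 lower in senescent mitoplasts, 1808 higher and 4116 lower in young mitoplasts against whole cells, 5722 lower in senescent ones with 0 regulators higher, and 5402 lower in the difference. Stricter filters compare fewer genes, which by itself lowers counts; other causes were not tested.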

Other observations

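The pathway lists were also counted in the other comparisons. In mitoplasts, senescent against young, 15 of 21 G1/S genes known as E2F targets were lower and 4 higher (median −2.44), and 17 of 23 G2/M genes were lower and 3 higher (median −1.89). Over all genes of that comparison 57.7% were lower and 21.9% higher. With coding transcripts alone, 11 of 16 G1/S genes were lower and 2 higher, and 19 of 20 G2/M genes were lower and 0 higher. Over all genes in coding transcripts, 5885 of 9053 were lower and 1411 higher.

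In senescent mitoplasts against senescent whole cells the 2 lists were divided. Of 15 G1/S genes 5 were higher and 8 lower, and of 18 G2/M genes 10 were higher and 7 lower. Over all genes 18.7% were higher and 64.7% lower. With coding transcripts alone, 4 of 11 G1/S genes were higher and 5 lower, and 6 of 11 G2/M genes were higher and 5 lower. Over all genes in coding transcripts, 1242 of 9332 were higher and 6577 lower. Among the named examples, BUB1B was at 21.4 FPKM in senescent mitoplasts and 0.634 FPKM in senescent whole cells (1.35 and 0.0729 FPKM in coding transcripts), and MCM10 at 24.6 FPKM in senescent mitoplasts and 0.447 FPKM in senescent whole cells. AURKB was at 6.84 and 0.106 FPKM (0 and 0.106 FPKM in coding transcripts). TK1, CDC45, GINS1, UBE2C and CDKN3, also named, were listed at 0 in senescent mitoplasts. In senescent whole cells they were at 0.247, 1.05, 2.49, 0.591 and 1.03 FPKM. CCND2 was at 25.6 FPKM in senescent mitoplasts and 10.7 FPKM in senescent whole cells. Of the 10 cyclins and kinases compared there, 3 were higher and 4 lower. In young mitoplasts against young whole cells the medians were −0.12 for the G1/S list and −0.09 for the G2/M list, beside −0.46 over all genes.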
